A study of Mus musculus with 24 samples.

Results

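The first week after birth was followed in the liver of mice lacking the glucagon receptor by comparing RNA at postnatal day 7.5 (P7.5) with RNA at postnatal day 2.5 (P2.5). The comparison used 7 of the 24 libraries of the series: the 4 labelled P2.5 KO, and replicates 1, 3 and 4 of those labelled P7.5 KO. The libraries were chosen by their Gcgr ratio, with no other gene used: replicate 2 of P7.5 KO was left out because its log2 ratio for Gcgr, the gene of the receptor, was above 4, the level of wildtype liver. The KO groups have the genotype GCGR knockout, the control groups are wildtype (WT), the tissue is liver throughout, and no treatment is named. The 4 P2.5 WT and 4 P7.5 WT libraries were used for comparison. The 4 E18.5 WT and 4 E18.5 KO libraries (the embryonic age) were not compared. They helped to estimate the spread, to choose the probe of each gene and to filter genes. The labels do not give the allele, strain or sex, nor whether a library is 1 animal or a pool, so p-values measure the spread between libraries, which may be technical. Every library was labelled with Cy5 and hybridised to an Agilent array beside Cy3-labelled universal mouse reference RNA, which is pooled. Levels are therefore log2 ratios of liver over reference, and a change is the difference between 2 such levels, so that a change of 1 is 2-fold.

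The glucagon receptor sits on hepatocytes and signals through cAMP. Glucagon makes the liver break down glycogen, form glucose and take up and degrade amino acids, and mice without the receptor are known for high amino acids in blood. In the days after birth the mouse liver ceases to be a site of blood formation, its cells divide less, and hepatocytes turn towards plasma proteins, bile acids and the clearance of foreign compounds while the pup lives on milk.

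Gcgr chose the libraries and is therefore described without a test. In the KO libraries used it read 0.17, 0.38, 0.37 and 0.19 at P2.5 (replicates 1 to 4, the order kept below) and 0.00, 0.26 and -0.01 at P7.5 (replicates 1, 3 and 4). The highest library kept was thus at 0.38 and the library left out at 5.02, close to the 8 WT libraries of these ages, which lay between 5.50 and 6.26. The library left out also differed in sex-linked RNA: the Y-linked gene Eif2s3y read -2.61 there and 2.61 to 3.06 in the 7 KO libraries used, and Xist, made from the inactive X chromosome, read 0.56 against -1.77 to -1.20. Of the 8 WT libraries 3 read low for Eif2s3y (-3.03 in P2.5 WT replicate 1, -2.37 and -2.45 in P7.5 WT replicates 3 and 4), so a comparison with WT mixes both patterns, and their part in it was not tested.

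**Figure D1:**
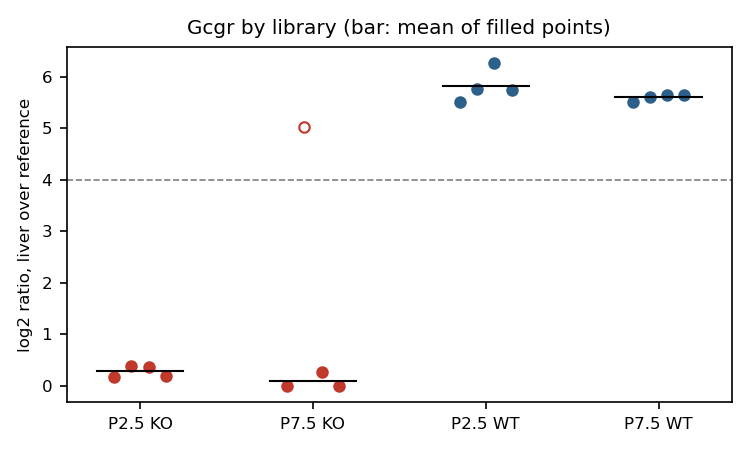
Log2 ratio of Gcgr (liver over reference) in each library of the 2 ages and genotypes, 1 point per library, with a line at the limit of 4 used for the choice. The 7 KO libraries used lie between -0.01 and 0.38, and the open point, the library labelled P7.5 KO replicate 2, at 5.02 lies beside the WT libraries.

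The tissue label held in each of the 7 KO libraries, where all 7 hepatocyte markers (Alb, Ttr, Apoa1, Serpina1a, Hnf4a, Trf and Ahsg) were well above background. Between 22668 and 31882 of the 39429 probes were well above background in Cy5 over all arrays. The P7.5 KO arrays all lay on 1 slide and the P2.5 KO arrays on 2 others, so in KO liver age and slide cannot be told apart, while WT arrays of both ages shared slides. No slide held both genotypes, so in a comparison with WT genotype and slide cannot be told apart either. The WT arrays also shared 1 scan day and 1 version of Feature Extraction, and the KO arrays had other scan days and another version, so neither can be told apart from genotype. P2.5 KO replicate 3 was the only array on its slide and the only one of its scan day, and 5604 genes passed without it, against 6340 with it as given further on. Fitting slide as a random block gave 5441. P7.5 KO replicates 3 and 4 correlated with each other at 0.995 over genes, and replicate 1 with them at 0.967 and 0.965 and with the library left out at 0.98. With the 4 P7.5 WT libraries replicate 1 correlated at 0.957 to 0.961, and replicates 3 and 4 at 0.928 to 0.938. Replicate 1 also stood apart in interferon and acute phase genes, as given further on, and counts without it are given where they move. In bulk liver RNA, fewer cells of a type and less RNA per cell cannot be told apart, which holds for every cell type named here.

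Over the first week in KO liver most markers of red cell and platelet precursors fell, as did many genes of cell division and both metallothionein genes Mt1 and Mt2. Collagens and other stellate cell genes rose, with genes of the growth hormone axis and enzymes of conjugation and cholesterol synthesis. Of 17248 genes tested with limma, 6340 (36.8%) passed an adjusted p of 0.05 (Benjamini-Hochberg), the threshold meant by "rose" and "fell" below. There were 3695 rises (21.4% of genes tested) and 2645 falls (15.3%), around a median change of 0.032. At least 2-fold changes numbered 742 (4.3%), of which 412 (2.39%) were rises and 330 (1.91%) were falls. The 3 values at P7.5 and the 4 at P2.5 did not overlap in 6667 genes (38.7%). Rises made up 58.3% of the calls here, but 47.9% of 5868 in the log ratios of Feature Extraction, the scanner's own software, and 48.5% of 7222 in Cy5 alone, so the balance of rises and falls depends on the scaling. With the library labelled P7.5 KO replicate 2 included 6486 genes passed, and 5816 of the 6340 passed in the same direction.

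In WT liver 6556 genes (38%) passed over the same days, and the change differed between the genotypes in 5741 genes (33.3%) by the test of the difference itself (the interaction of genotype and age). Of the 742 genes that changed at least 2-fold in KO liver, 372 (50.1%) passed the same way in WT, 70 (9.43%) passed the opposite way and 300 did not pass. The difference between the genotypes passed for 480 of them (64.7%).

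**Figure D2:**
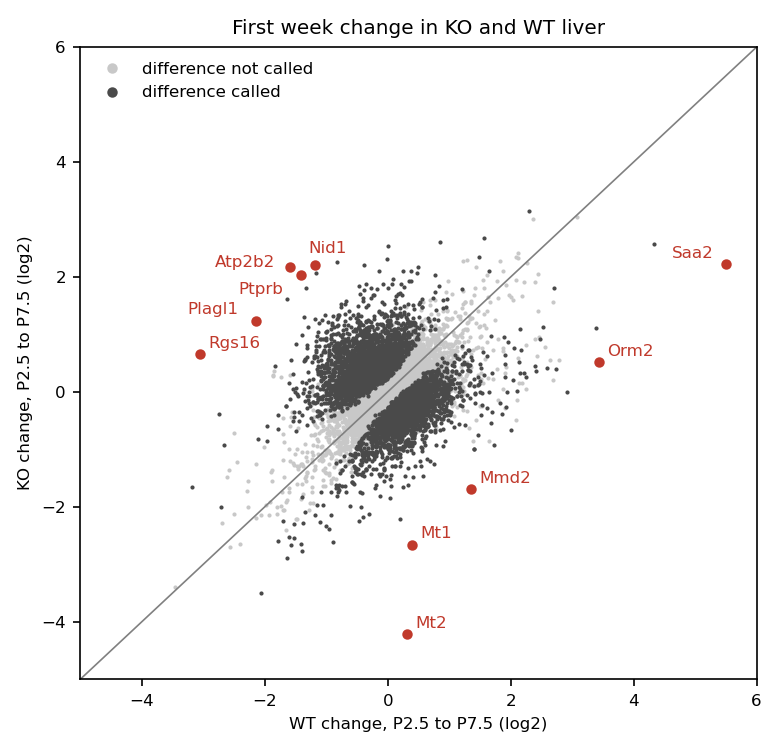
Change from P2.5 to P7.5 in KO liver (vertical, log2) against that in WT liver (horizontal, log2) for the 17248 genes tested, with genes whose change differed between genotypes (5741, adjusted p under 0.05) in the darker shade and the genes with the largest differences named. Mt1 and Mt2 lie below the diagonal and Atp2b2, Ptprb and Nid1 above it.

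Among the 12 largest rises were transporters, oxidising enzymes and a secreted proteoglycan. Prg4, which encodes the secreted proteoglycan lubricin, read 0.26, 0.75, 0.56 and 0.46 at P2.5 and then 3.63, 3.64 and 3.69 at P7.5, a rise of 3.14 ± 0.16 (SE, n = 3 against 4, limma adjusted p = 3.49e-11), or 8.83-fold. Slc22a7, an organic anion transporter, read 1.58, 2.83, 1.09 and 1.91 and then 4.69, 5.11 and 4.89, a rise of 3.05 ± 0.28 (adjusted p = 7.43e-08). In the log ratios of Feature Extraction Slc22a7 changed by 0.86 only, without a call (limma adjusted p = 0.105). Cyp4f14, a cytochrome P450 that hydroxylates lipids, read 1.09, 1.62, 0.73 and 1.20 and then 3.44, 4.64 and 4.43, a rise of 3.01 ± 0.28 (adjusted p = 9.33e-08). The naming rule chose genes whose P2.5 and P7.5 values do not overlap, so that separation is no result.

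Ddo, which oxidises D-aspartate, rose by 2.61, although another of its probes changed by 0.48. Inmt, an N-methyltransferase of indole amines, rose by 2.57, and Sqor, which oxidises hydrogen sulfide in mitochondria, by 2.34. The phosphate transporter gene Slc17a4 rose by 2.35 (another of its probes changed by 0.81), and the lipase relative Pnliprp1 by 2.33. Ifi27l2b rose by 2.67, although its other probe changed by -0.06. The kinase gene Dclk3 rose by 2.41 and the class I histocompatibility gene H2-Q1 by 2.29, whose probe may also read its relatives. Slc26a1, a sulfate transporter of hepatocytes, read 3.32, 2.96, 3.23 and 3.68 at P2.5 and then 5.15, 5.75 and 5.91 at P7.5, a rise of 2.31 ± 0.19 (adjusted p = 1.99e-08). In WT liver Slc26a1 was already at 5.45 to 6.02 at P2.5 and changed by -0.01 (adjusted p = 0.96), so that the difference between genotypes was 2.32 (adjusted p = 9.02e-06). Ddo too rose more in KO than in WT liver, by 1.76 (adjusted p = 4.64e-05), whereas for Slc22a7 and Cyp4f14 the difference did not pass (-0.03, adjusted p = 0.964, and 0.65, adjusted p = 0.198).

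The 12 largest falls included both metallothionein genes, which encode small proteins that bind zinc and copper, and Mt2 fell most. Mt2 read 2.48, 2.72, 3.05 and 1.81 at P2.5 and then 0.74, -3.23 and -2.62 at P7.5, a fall of 4.22 ± 0.60 (SE, n = 3 against 4, limma adjusted p = 1.79e-05), or 18.6-fold. Mt1 read 2.66, 2.79, 2.77 and 1.56 and then 1.01, -1.12 and -0.53, a fall of 2.66 ± 0.39 (adjusted p = 2.38e-05). Leaving out P7.5 KO replicate 1 moved the changes to -5.44 for Mt2 and -3.27 for Mt1, and leaving out replicate 3 moved that of Mt2 to -3.46. For both genes all 3 P7.5 values were below all P2.5 values, with replicate 1 well above replicates 3 and 4. The SE and p-values rest on a spread pooled over all 6 groups. The SD in P7.5 KO was larger than in P2.5 KO, at 2.14 against 0.53 for Mt2 and 1.1 against 0.59 for Mt1. The pooled SE therefore understates the spread of the P7.5 KO libraries for these genes. By contrast the library left out read 3.27 for Mt2 and 3.03 for Mt1, as the P7.5 WT libraries did (2.65 to 3.78 and 2.62 to 3.55), and with it the changes were -2.98 and -1.85. In WT liver neither gene passed (0.31, adjusted p = 0.702, and 0.39, adjusted p = 0.423), and the difference between genotypes was -4.53 for Mt2 (adjusted p = 0.000393) and -3.05 for Mt1 (adjusted p = 0.000289), or -5.75 and -3.66 without P7.5 KO replicate 1, and -3.77 for Mt2 without replicate 3.

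Among the other large falls were several genes of blood precursors. Pdia2, a protein disulfide isomerase, read 5.38, 5.31, 4.88 and 4.88 at P2.5 and then 0.95, 1.90 and 1.99 at P7.5, a fall of 3.50 ± 0.20 (SE, n = 3 against 4, limma adjusted p = 2.59e-10). Aqp3, a water and glycerol channel, fell by 3.39. Gfi1b and Tal1, transcription factors of red cell and platelet precursors, fell by 2.89 and 2.66, Ermap, an erythroid membrane protein, by 2.65 (another of its probes changed by -0.16), and Ms4a3, a gene of granulocyte precursors, by 2.61. Serpina3k, a protease inhibitor made by hepatocytes, fell by 2.71, with P7.5 values of 1.54, 4.58 and 3.13 that spread widely (-1.94 without P7.5 KO replicate 1, -3.46 without replicate 3), and its probe may read close relatives. In the log ratios of Feature Extraction Serpina3k changed by -0.13 only, without a call (limma adjusted p = 0.807). The cell cycle regulator gene Rgcc fell by 2.77, the coactivator gene Cited4 by 2.65 and the sphingosine kinase gene Sphk1 by 2.59. The fall exceeded that in WT liver for Gfi1b (by 1.25 on the log2 scale, adjusted p = 0.00134, but without a call when the background was fitted on all spots, adjusted p = 0.113), Rgcc (by 1.38, adjusted p = 7.2e-05) and Cited4 (by 1.23, adjusted p = 3.17e-05), while for Aqp3 the difference did not pass (0.08, adjusted p = 0.874).

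**Figure D3:**
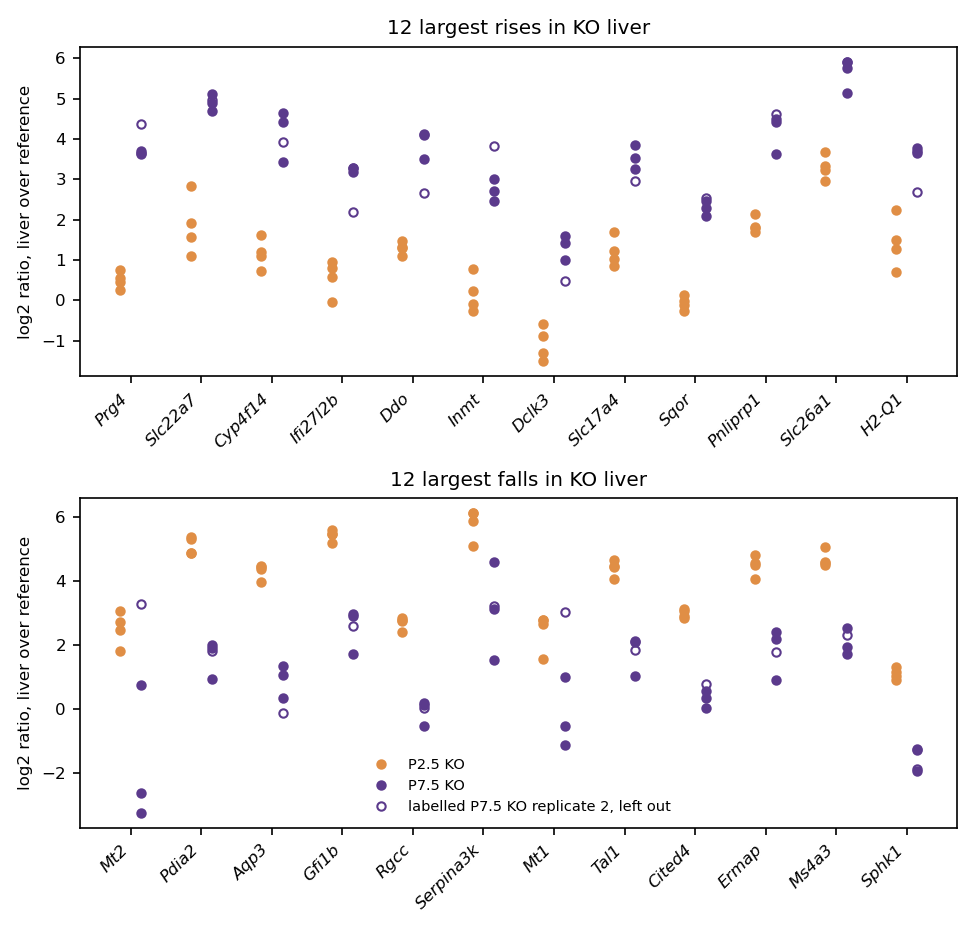
Log2 ratio of the 12 largest rises (upper panel) and the 12 largest falls (lower panel) in each KO library, P2.5 in one colour and P7.5 in the other, with the library labelled P7.5 KO replicate 2 as open points. The P2.5 and P7.5 points used do not overlap for any of the 24 genes, as the naming rule requires, and the open points lie with P2.5 for Mt1 and Mt2.

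Because members of 3 groups moved together, the letters before their start sites are shown, 250 bases upstream of the RefSeq start on GRCm38.p6. The first motif is the core of the metal response element, to which the zinc sensor MTF1 binds, searched as TGCACNC or TGCGCNC on both strands and shown in capitals for Mt1 (chr8:94178839-94179088, plus strand) and Mt2 (chr8:94172368-94172617, plus strand). It occurred 1 time before Mt1, 23 bases upstream of the start, and 3 times before Mt2, 223, 128 and 50 bases upstream. These counts hold for the window before the listed start alone. Letters outside the window were not searched, so a gene may hold more matches nearby.
Mt1: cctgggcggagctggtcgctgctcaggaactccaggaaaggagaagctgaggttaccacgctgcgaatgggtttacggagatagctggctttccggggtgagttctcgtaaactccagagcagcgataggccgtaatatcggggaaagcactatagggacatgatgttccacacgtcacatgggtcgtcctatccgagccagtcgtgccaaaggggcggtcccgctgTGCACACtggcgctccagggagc
Mt2: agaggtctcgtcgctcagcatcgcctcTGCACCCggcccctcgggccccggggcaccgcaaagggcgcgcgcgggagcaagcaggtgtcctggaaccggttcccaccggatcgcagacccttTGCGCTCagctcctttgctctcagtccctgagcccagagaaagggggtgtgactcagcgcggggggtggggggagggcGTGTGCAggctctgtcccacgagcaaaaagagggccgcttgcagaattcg

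Of the 13673 tested genes with such a sequence 30.3% held this motif at least once and 8.22% at least 2 times, and of the 259 with a sequence among the at least 2-fold falls 29% and 5.79% did. The second motif, AGATAA on both strands, is the site of GATA1, the main transcription factor of red cell precursors. It was present before 6 of the 13 fallen erythroid markers with a sequence (46.2%) and before 9% of all genes. Among at least 2-fold changes with a sequence it was present before 16.2% of falls and 12.8% of rises. It is shown before Tal1 (chr4:115056176-115056425, plus strand, 1 of its 2 listed starts) and Rhd (chr4:134864286-134864535, plus strand), the gene of the Rhesus blood group protein.
Tal1: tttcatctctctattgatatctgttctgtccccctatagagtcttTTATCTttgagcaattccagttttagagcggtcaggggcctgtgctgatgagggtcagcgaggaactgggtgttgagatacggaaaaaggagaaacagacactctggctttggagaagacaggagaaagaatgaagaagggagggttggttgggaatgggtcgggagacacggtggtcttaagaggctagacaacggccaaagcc
Rhd: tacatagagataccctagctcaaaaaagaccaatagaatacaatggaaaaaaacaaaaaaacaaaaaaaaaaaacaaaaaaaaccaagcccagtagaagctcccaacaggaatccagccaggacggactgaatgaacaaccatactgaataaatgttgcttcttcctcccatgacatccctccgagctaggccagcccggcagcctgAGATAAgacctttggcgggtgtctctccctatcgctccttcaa

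The third motif, GTTAAT on both strands, is the core of the site of HNF1, a transcription factor of hepatocytes. It was found before 4 of the 14 risen genes of hepatocyte secreted proteins with a sequence (28.6%), before 11.2% of the 313 at least 2-fold rises with a sequence and before 6.17% of all genes. It is shown before Alb (chr5:90460620-90460869, plus strand), the albumin gene, and Pzp (chr6:128526721-128526970, minus strand), a plasma protease inhibitor with 2 matches. None of the 3 motifs contains another, and a match describes the letters and not the binding of a factor.
Alb: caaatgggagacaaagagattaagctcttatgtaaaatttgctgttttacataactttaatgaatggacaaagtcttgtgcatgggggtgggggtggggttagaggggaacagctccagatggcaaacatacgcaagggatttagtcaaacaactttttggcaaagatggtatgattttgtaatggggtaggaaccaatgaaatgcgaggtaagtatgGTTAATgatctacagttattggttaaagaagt
Pzp: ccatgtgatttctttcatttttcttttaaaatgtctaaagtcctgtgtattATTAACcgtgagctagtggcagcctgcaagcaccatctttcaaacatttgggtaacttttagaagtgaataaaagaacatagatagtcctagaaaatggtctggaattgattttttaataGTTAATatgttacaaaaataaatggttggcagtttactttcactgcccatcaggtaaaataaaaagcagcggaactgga

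Gene lists are read against all genes tested, of which 21.4% rose and 15.3% fell in KO liver. In WT liver 21.2% rose and 16.8% fell, and the change was higher in KO for 16.9% and lower for 16.4%. Without P7.5 KO replicate 1, 21.7% rose and 13.9% fell, with the library left out included 21.5% and 16.1%, in the log ratios of Feature Extraction 16.3% and 17.7%, and in Cy5 alone 20.3% and 21.6%. Where a list had no call in a direction by limma, at most 2 of its members had an unadjusted p under 0.05 in that direction, and at most 2 passed in the log ratios of Feature Extraction. Of 28 erythroid markers 21 fell and 1 rose, with a median change of -1.50. Tspo2, a porphyrin-binding protein of red cell precursors, read 4.56, 4.52, 4.27 and 4.41 at P2.5 and then 1.84, 2.13 and 2.22 at P7.5, a fall of 2.38 ± 0.18 (SE, n = 3 against 4, limma adjusted p = 5.28e-09). Nfe2, a transcription factor of red cell and platelet precursors, fell by 1.99 and Gata1 by 1.67, Cldn13, a claudin, by 2.30 and Rhd by 2.0 (1.26 without P7.5 KO replicate 1). The mean of the list ran from 3.08 to 3.51 in the P2.5 KO libraries and was 1.37, 2.23 and 2.27 in the P7.5 libraries, with replicate 1 lowest, and 18 members fell without that library. In WT liver 23 members fell, and the difference between genotypes passed towards a larger fall in KO for 7 members, among them Tspo2 (-1.42, adjusted p = 0.000229) and Nfe2 (-1.37, adjusted p = 0.00028), and in the other direction for 2. The member that rose was Hemgn, a nuclear protein of blood precursors, by 0.58 (adjusted p = 0.0269), with a difference from WT of 1.07 (adjusted p = 0.00509).

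Of platelet precursor genes, 12 of 13 megakaryocyte markers fell, with a median of -1.29. Gp9, part of the receptor for von Willebrand factor, read 4.81, 4.72, 4.70 and 4.06 at P2.5 and then 2.19, 2.40 and 2.39 at P7.5, a fall of 2.25 ± 0.19 (SE, n = 3 against 4, limma adjusted p = 4.02e-08). Pf4 and Ppbp, chemokines of platelet granules, fell by 1.77 and 1.57. Gp9 and Pf4 fell more than in WT liver, by 1.78 (adjusted p = 7.97e-05) and 1.35 (adjusted p = 0.000144) on the log2 scale, and the integrin gene Itga2b less, by 1.12 (adjusted p = 0.0101). Over the list 12 members also fell in WT liver.

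Of 16 neutrophil markers 7 fell, led by the granule protease gene Ctsg, which read 5.80, 5.61, 6.61 and 5.81 and then 3.04, 3.46 and 4.15, a fall of 2.41 ± 0.29 (SE, n = 3 against 4, limma adjusted p = 2.23e-06), and Mpo, the myeloperoxidase gene, by 1.26. Of 12 B cell markers 6 fell, among them Ms4a1, the gene of CD20 (by 1.64), and Cd79b of the B cell receptor (by 1.43), and 4 fell without P7.5 KO replicate 1. Of 12 T and NK cell markers 2 rose and 2 fell, near the shares over all genes tested (21.4% and 15.3%). Cd3d of the T cell receptor complex was up by 1.12 and Gzma, granzyme A, down by 1.85. In WT liver 7 of these 12 rose, and Cd3d rose by 1.41 less in KO than in WT (adjusted p = 0.00058). Of the 12 eosinophil and mast cell markers 2 fell and none rose in KO liver, 8 rose in WT, and the change was lower in KO for 8. Prg2, the major basic protein of eosinophil granules, read 3.97, 3.83, 3.69 and 3.62 at P2.5 and then 3.67, 3.81 and 3.85 in KO liver, overlapping between ages, and its change differed from that in WT by -2.92 (adjusted p = 1.28e-06). Of 15 Kupffer cell and macrophage markers 5 rose and none fell, among them Marco, a scavenger receptor (0.75, adjusted p = 0.000325), Folr2 (0.85) and Adgre1, a surface receptor of macrophages (1.16). The log ratios of Feature Extraction gave 2 rises among these 15.

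Stellate cell and fibroblast markers rose together in KO liver. Of 19 tested 16 rose and none fell, with a median of 0.85 (1.01 without P7.5 KO replicate 1, 0.60 with the library left out), and in WT liver 2 rose and 6 fell. Col1a1, an alpha chain of type I collagen, read -4.79, -4.44, -4.35 and -3.51 at P2.5 and then -2.48, -1.82 and -1.76 at P7.5, a rise of 2.25 ± 0.34 (SE, n = 3 against 4, limma adjusted p = 3.68e-05). Col1a2, the other chain, rose by 1.69 and Col3a1, of type III collagen, by 1.93. Lrat, which stores retinol as ester in stellate cells, rose by 1.46 and the matrix proteoglycan gene Dcn by 1.40. The change differed from that in WT liver for 14 of the 19 genes, always upwards, with Col1a1 at 3.08 (adjusted p = 9.42e-05), Dcn at 2.04 (adjusted p = 3.17e-05) and the receptor gene Pdgfrb at 1.33 (adjusted p = 0.000325). The mean over the list was -0.17, 0.00, -0.04 and 0.38 at P2.5 and then 0.73, 1.06 and 1.11 in KO liver, 0.40 in the library left out, and 0.03 to 0.17 in P7.5 WT.

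Endothelial markers rose in 8 of 18 cases and fell in none (median 0.40), against 2 and 6 in WT liver. The log ratios of Feature Extraction gave 4 rises in KO liver (median 0.23). Ptprb, a phosphatase of blood vessel cells, read 3.07, 3.10, 3.05 and 3.12 at P2.5 and then 4.25, 5.37 and 5.72 at P7.5, a rise of 2.03 ± 0.25 (SE, n = 3 against 4, limma adjusted p = 3.25e-06), while in WT liver it fell from 4.86, 5.09, 5.29 and 5.14 to 3.95, 3.54, 3.66 and 3.55. The KO values lay below the WT values at P2.5 and above them at P7.5, and the changes differed by 3.45 (adjusted p = 3.51e-06), or 1.41 without a call in the log ratios of Feature Extraction. Another Ptprb probe changed by 0.79 in KO liver. Stab2, a scavenger receptor of sinusoids, rose by 0.47, Dnase1l3 by 0.81 and Fcgr2b by 0.95. The bile duct markers Sox9 and Spp1 rose by 0.92 and 0.93, 2 of 10 in all, near the 21.4% of all genes tested. Markers of pancreas and muscle, tissues that could be dissected with liver, fell in 3 of 12 cases, with the elastase gene Cela1 down by 1.41. Cpa1, a carboxypeptidase gene, was among the 3 (adjusted p = 0.0467) and was not well above background on any P7.5 array. No fold is given for it, since the lower bound from Cy5 (1.7-fold) exceeded the fold of its log2 ratios.

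**Figure D4:**
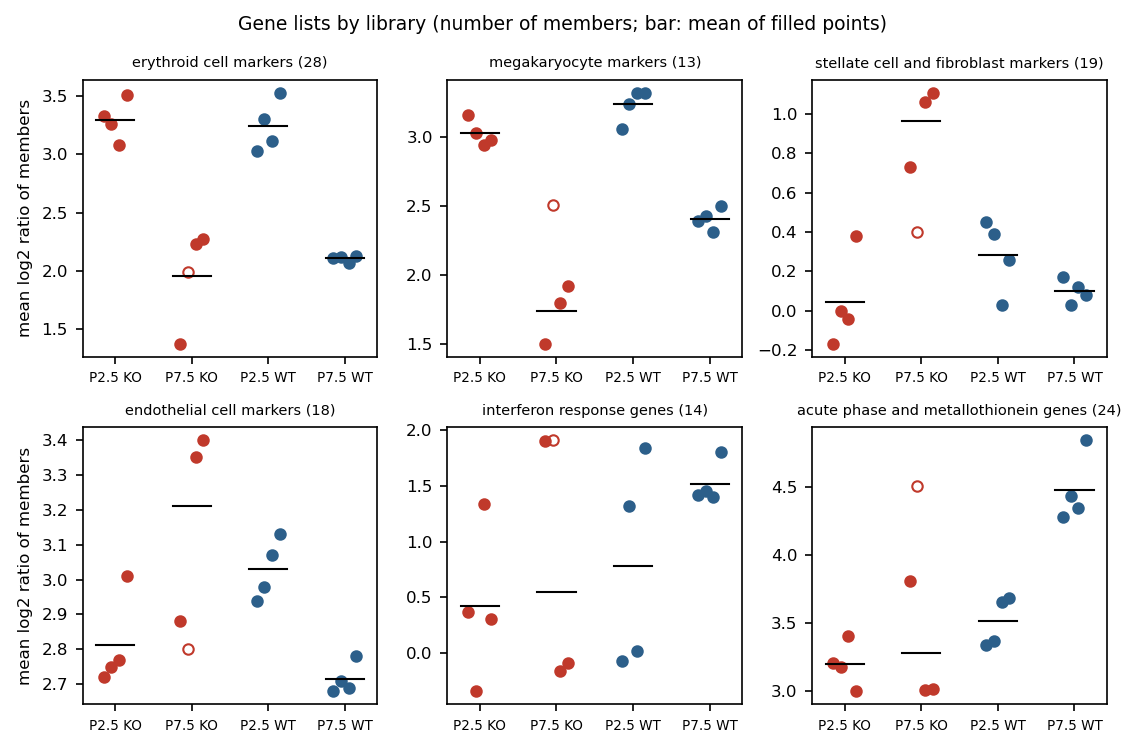
Mean log2 ratio over the members of 6 gene lists in each KO library and each WT library of P2.5 and P7.5 (1 point per library, the library labelled P7.5 KO replicate 2 open). Erythroid and megakaryocyte means fall in both genotypes, stellate means in KO go from at most 0.38 to at least 0.73, and interferon means differ among libraries of the same group.

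Genes of cell division fell in 22 of 40 cases and rose in none (median -0.40), and 15 fell without P7.5 KO replicate 1. Rrm2, a ribonucleotide reductase subunit, read 0.97, 1.06, 0.49 and 0.85 at P2.5 and then -0.92, -0.28 and -0.39 at P7.5, a fall of 1.37 ± 0.17 (SE, n = 3 against 4, limma adjusted p = 3.34e-06). The replication licensing gene Cdc6 fell by 1.07, Ube2c, a ubiquitin-conjugating enzyme gene, by 0.82 and cyclin E1, Ccne1, by 0.69 (another of its probes changed by -0.04). In WT liver 27 fell. Mki67, the proliferation marker Ki-67, changed by -0.59 (adjusted p = 0.144) in KO and differed from WT by 1.37 (adjusted p = 0.0167), a call lost without P7.5 KO replicate 4 (1.21). Of 17 oncofetal genes 5 fell and 3 rose, against 15.3% and 21.4% of all genes tested. Lin28b, a blocker of let-7 maturation, read 2.27, 2.42, 1.83 and 2.29 and then 0.02, 0.03 and -0.03, a fall of 2.20 ± 0.15 (adjusted p = 1.57e-09) that did not differ detectably from that in WT (-0.04, adjusted p = 0.892), while Afp, alpha-fetoprotein, rose by 0.51 (adjusted p = 0.0113), though by -0.16 without a call on scaled log ratios.

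Imprinted growth genes rose in 6 of 15 cases and fell in 1, against 2 and 5 in WT, but in the log ratios of Feature Extraction 3 rose and 3 fell and the median turned from 0.14 to -0.09. Sgce, a sarcoglycan, rose by 0.90 ± 0.16 (SE, n = 3 against 4, limma adjusted p = 0.000151) and Dlk1, a Notch ligand relative of fetal liver, fell by 1.23. Plagl1, an imprinted transcription factor, read 0.30, 0.42, 0.47 and 2.56 at P2.5 and then 1.45, 2.49 and 2.60 at P7.5, a rise of 1.24 (adjusted p = 0.0364). Replicate 4 at P2.5 lay among the P7.5 values, the call was lost without P2.5 KO replicate 1, 2 or 3, without P7.5 KO replicate 3 or 4 and with the library left out, and another of its probes changed by -0.38. Its difference from WT was 3.40 (adjusted p = 0.000413). Peg3 rose by 0.75 and differed from WT by 1.64 (adjusted p = 0.000362).

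Of the proteins that hepatocytes secrete, 21 of 38 genes rose and 1, Serpina3k, fell (median 0.41). C3, the central complement component, read 4.16, 4.08, 3.89 and 4.74 at P2.5 and then 5.58, 5.79 and 5.84 at P7.5, a rise of 1.51 ± 0.31 (SE, n = 3 against 4, limma adjusted p = 0.000752), and differed from WT by 1.84 (adjusted p = 0.00273). C9, of the membrane attack complex, was not well above background in any P2.5 library and at least 2.26-fold higher at P7.5 (adjusted p = 1.07e-07). Gc, the vitamin D binding protein, rose by 0.75, Pzp by 0.71 and Alb by 1.03.

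Acute phase and metallothionein genes rose in 9 of 24 cases and fell in 4, and without P7.5 KO replicate 1 in 5 and 5. The log ratios of Feature Extraction gave 4 rises and 3 falls (median 0.12). Cp, the copper-carrying plasma protein ceruloplasmin, read 1.54, 1.68, 1.71 and 1.61 at P2.5 and then 3.22, 3.13 and 3.26 at P7.5, a rise of 1.57 ± 0.27 (SE, n = 3 against 4, limma adjusted p = 0.000116) against -0.09 in WT (adjusted p = 0.81), a difference of 1.66 (adjusted p = 0.00173). The orosomucoid and serum amyloid genes differed between libraries. Orm2, orosomucoid 2, read 0.37, 0.26, 1.03 and 0.43 at P2.5 and then 2.78, 0.13 and 0.19 at P7.5, with replicate 1 alone above the P2.5 values, and the library left out read 5.25. In WT liver Orm2 rose by 3.44 and Saa2, a serum amyloid A gene, by 5.50. The difference between genotypes was -2.93 for Orm2 (adjusted p = 0.00154) and -3.27 for Saa2 (adjusted p = 0.0114). Saa2 rose by 2.22 in KO (adjusted p = 0.0155) from 1.1, 0.83, 4.23 and 0.72 to 5.72, 3.26 and 2.85, which overlap, and the change was 3.06 without P2.5 KO replicate 3 and 1.33, without a call, without P7.5 KO replicate 1. Without the latter library the differences from WT were -3.80 for Orm2 and -4.16 for Saa2. Probes of the Orm and Saa genes may each read their relatives.

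Interferon response genes also set P7.5 KO replicate 1 apart. Their mean over 14 genes was 0.37, -0.34, 1.34 and 0.31 at P2.5 and then 1.90, -0.16 and -0.09 at P7.5, with P2.5 KO replicate 3 and P7.5 KO replicate 1 highest, and 1 of 14 genes rose, the RNA sensor gene Ddx58 (0.67, adjusted p = 0.0032). The other Ddx58 probe changed by 0.05, and the mean of both did not pass (0.36, adjusted p = 0.102). In WT liver the 4 P2.5 libraries ran from -0.07 to 1.84 and the P7.5 libraries from 1.40 to 1.80. The median change of the list was 0.19, and -0.49 without P7.5 KO replicate 1.

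Genes of the growth hormone and insulin-like growth factor axis rose in 11 of 19 cases and fell in 1 (median 0.51). Igf1, the growth factor that liver releases under growth hormone, read 2.14, 2.33, 2.20 and 2.14 at P2.5 and then 4.14, 4.34 and 4.27 at P7.5, a rise of 2.05 ± 0.17 (SE, n = 3 against 4, limma adjusted p = 2.41e-08). Ghr, the growth hormone receptor, rose by 1.37, Igfals, which holds Igf1 in plasma, by 1.51, and Dio1, which activates thyroid hormone, by 1.91. For these 4 genes the difference from WT did not pass (adjusted p from 0.0626 to 0.644). It did for the insulin receptor gene Insr (2.01, adjusted p = 4.31e-05) and for Irs2, the insulin receptor substrate (2.11, adjusted p = 0.000102). Irs2 read 0.02, 0.18, -0.17 and 0.01 at P2.5 and then 0.61, 1.36 and 1.64 at P7.5, and fell in WT liver.

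Hepatocyte transcription factors rose in 7 of 22 cases and fell in none. Ppara, the fatty acid receptor, rose by 0.77 (limma adjusted p = 0.000293) and differed from WT by 0.93 (adjusted p = 0.00133). Tbx3 rose by 1.12 and Nr5a2, which controls bile acid enzymes, by 0.77 (another of its probes changed by 0.04). Among clock genes 8 of 20 rose and 2 fell, with the nuclear receptor gene Rora up by 1.21 and Clock up by 0.83, which differed from WT by 2.17 (adjusted p = 3.17e-05) and 1.32 (adjusted p = 3.75e-05). The immediate early gene Jun read -2.57, -2.71, -2.32 and -2.96 at P2.5 and then -0.83, -0.76 and -0.73 at P7.5, a rise of 1.87 ± 0.17 (SE, n = 3 against 4, adjusted p = 7.09e-08), but only 1 of 12 genes of that list rose and 2 fell, Myc among them by 1.19.

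Enzymes that conjugate drugs and hormones rose in 19 of 31 cases and fell in none (median 0.81), and in WT liver 18 rose. Ugt3a1, a glycosyltransferase, read 0.57, 0.82, 1.09 and 0.84 at P2.5 and then 2.64, 2.86 and 2.76 at P7.5, a rise of 1.92 ± 0.14 (SE, n = 3 against 4, limma adjusted p = 5.28e-09), with a difference from WT of 0.14 that did not pass (adjusted p = 0.624). Its relative Ugt3a2 rose by 1.91, Tpmt, a thiopurine methyltransferase, by 1.43 and the glutathione transferase gene Gsta3 by 1.17. Cytochrome P450 and flavin oxidation genes rose in 17 of 39 cases and fell in 3 (median 0.30), and in the log ratios of Feature Extraction 7 rose and 3 fell. Cyp2b9 and Cyp2b13, near relatives whose probes may read each other, rose by 2.11 and 1.70. Cyp2f2, an enzyme of periportal hepatocytes, fell by 1.30 and differed from WT by -1.41 (adjusted p = 0.00336).

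Bile acid genes rose in 10 of 21 cases and fell in 1 (median 0.64), but in the log ratios of Feature Extraction 4 rose, 1 fell and the median was -0.01. Cyp8b1, the enzyme that makes cholic acid, read 1.34, 1.68, 0.87 and 3.15 at P2.5 and then 2.98, 4.79 and 5.09 at P7.5, a rise of 2.53 ± 0.54 (SE, n = 3 against 4, limma adjusted p = 0.000975) with P2.5 replicate 4 above P7.5 replicate 1, and 3.18 without P7.5 KO replicate 1. In WT liver it changed by 0.01, a difference of 2.52 (adjusted p = 0.0121), or 3.17 without P7.5 KO replicate 1. Slco1a4, an uptake transporter, rose (adjusted p = 0.000135) and was not well above background in any P2.5 library. No fold is given for it, since the lower bound from Cy5 (3.33-fold) exceeded the fold of its log2 ratios. Hsd3b7 rose by 0.81 and Abcg8, a subunit of the sterol exporter, by 1.1, while Cyp39a1 fell by 0.92, less than in WT by 1.73 (adjusted p = 0.00236).

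Genes of cholesterol synthesis rose in 18 of 25 cases and fell in none (median 0.56). There were 10 rises when the library left out was included, 13 without P7.5 KO replicate 1, and 10 rises and 1 fall in the log ratios of Feature Extraction. Sc5d, a late step, read 3.08, 3.26, 3.11 and 3.26 at P2.5 and then 4.02, 4.34 and 4.17 at P7.5, a rise of 1.0 ± 0.11 (SE, n = 3 against 4, limma adjusted p = 8.71e-07). Hmgcs1, an early step, rose by 1.03 and differed from WT by 1.38 (adjusted p = 0.00131). Genes of fatty acid synthesis and desaturation rose in 6 of 17 cases and fell in none, against 1 and 8 in WT liver. The elongase gene Elovl5 rose by 1.57 and the desaturase gene Fads1 by 1.16, while Elovl6, another elongase, changed by 0.31 (adjusted p = 0.322) and differed from WT by 1.85 (adjusted p = 0.000231).

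Fatty acid oxidation genes rose in 12 of 25 cases and fell in 2, and in WT liver 2 rose and 6 fell, with 9 genes that differed between genotypes, each with the higher change in KO. Hadh, an enzyme of the beta-oxidation spiral, read 2.49, 2.54, 2.34 and 2.44 at P2.5 and then 3.19, 3.37 and 3.42 at P7.5, a rise of 0.87 ± 0.12 (SE, n = 3 against 4, limma adjusted p = 1.51e-05). Cpt1a, which brings fatty acids into mitochondria, rose by 0.56 and differed from WT by 0.89 (adjusted p = 0.00494). Acot1, a thioesterase, went the other way and fell by 2.13. Lipoprotein genes rose in 9 of 19 cases and fell in none, but in the log ratios of Feature Extraction 4 rose and 1 fell (median 0.06). Apoc1 was up by 0.88 (-0.01 in Cy5 alone) and the hepatic lipase gene Lipc by 1.11 (Feature Extraction log ratios gave -0.15). Apoa4 changed by -0.39 (adjusted p = 0.307) in KO and differed from WT, where it fell, by 2.35 (adjusted p = 0.000178).

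**Figure D5:**
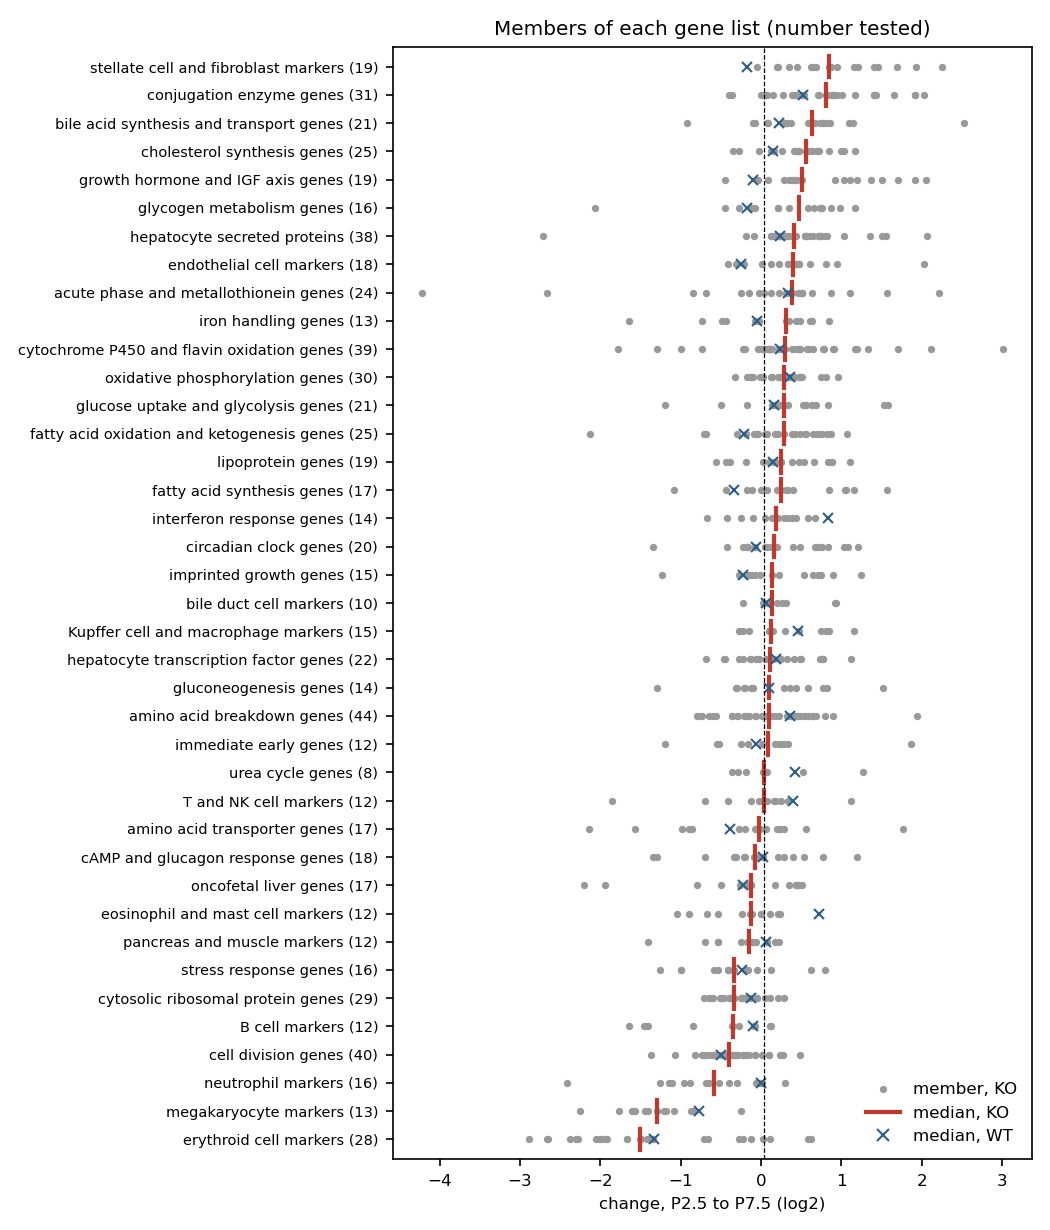
Change from P2.5 to P7.5 in KO liver (log2) of every tested member of 39 gene lists (points), with the median of each list in KO (bar) and in WT liver (cross), and a line at the median of all genes (0.032). The erythroid median lies at -1.50 and the stellate cell median at 0.85, where the WT median is -0.18.

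Gluconeogenesis genes rose in 5 of 14 cases and fell in 1 (median 0.10). In the log ratios of Feature Extraction 2 rose and 1 fell (median -0.02). Fbp1, fructose bisphosphatase, read 8.10, 7.73, 7.48 and 8.03 at P2.5 and then 8.57, 8.71 and 8.70 at P7.5, a rise of 0.82 ± 0.13 (SE, n = 3 against 4, limma adjusted p = 5.85e-05). Aqp9, the glycerol channel of hepatocytes, rose by 1.52 and differed from WT by 1.59 (adjusted p = 0.00321), and Tat, tyrosine aminotransferase, fell by 1.30 and differed by -1.50 (adjusted p = 0.036), a call lost without most single libraries. Tat read 4.96 in the library labelled P7.5 KO replicate 2 and 3.25, 3.83 and 3.72 in the 3 others. Of cAMP and glucagon response genes 2 of 18 rose and 4 fell, with Irs2 and Tat among them. Crem, a cAMP-responsive regulator, changed by -0.34 (adjusted p = 0.198, and 0.18 in another probe) and differed from WT by -1.32 (adjusted p = 0.00122).

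Glycolysis genes rose in 9 of 21 cases and fell in 1. Khk, the fructokinase, read 1.87, 1.91, 1.88 and 1.58 at P2.5 and then 3.33, 3.58 and 3.26 at P7.5, a rise of 1.58 ± 0.13 (SE, n = 3 against 4, limma adjusted p = 2.24e-08), and its difference from WT of 0.22 did not pass (adjusted p = 0.371). Of glycogen genes 8 of 16 rose and 3 fell (median 0.47, WT -0.17). Pygl, liver glycogen phosphorylase, rose by 0.75 and differed from WT by 1.02 (adjusted p = 0.000857). Ugp2, which makes the glucose donor, rose by 1.17 (another of its probes changed by 0.24), and Ppp1r3g, a glycogen targeting subunit, fell by 2.06.

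Genes of amino acid breakdown, which glucagon is known to promote, rose in 15 of 44 cases and fell in 4 (median 0.10), against 25 and 3 in WT liver. In the log ratios of Feature Extraction 9 rose, 5 fell and the median was -0.02. The change was lower in KO for 8 of the 44 genes and higher for 1, against 16.4% and 16.9% of all genes tested. The count of 8 is thus near the share over all genes, and the count of 1 is below it. Tdo2, tryptophan dioxygenase, read 0.35, 0.71, 0.20 and 1.15 at P2.5 and then 1.55, 3.28 and 2.79 at P7.5, a rise of 1.94 ± 0.36 (SE, n = 3 against 4, limma adjusted p = 0.000286) that did not differ detectably from WT (-0.14, adjusted p = 0.853). Kynu, of the same pathway, rose by 0.90. Gls2, liver glutaminase, read 3.53, 3.46, 3.21 and 2.68 and then 2.42, 2.97 and 2.60, and the library left out 4.66. It changed by -0.56 (adjusted p = 0.0682) and differed from WT by -1.72 (adjusted p = 0.000492). Sdsl, a serine dehydratase relative, fell by 0.65 and differed by -1.26 (adjusted p = 7.2e-05), and Gnmt, glycine N-methyltransferase, fell by 0.60 and differed by -1.02 (adjusted p = 0.00186).

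Of 8 urea cycle genes 2 rose, Otc, ornithine transcarbamylase, by 1.27 (limma adjusted p = 1.34e-06, -0.17 without a call in the log ratios of Feature Extraction) and Nags, which makes the activator of the cycle, by 0.52, while in the log ratios of Feature Extraction none rose and 1 fell. Ass1, argininosuccinate synthase, changed by -0.19 (adjusted p = 0.485) and differed from WT by -1.01 (adjusted p = 0.00692). Of 17 amino acid transporter genes 5 fell and 1 rose. Slc43a1, a carrier of large neutral amino acids, read 4.35, 4.49, 4.18 and 4.28 at P2.5 and then 2.52, 2.84 and 2.90 at P7.5, a fall of 1.57 ± 0.11 (SE, n = 3 against 4, limma adjusted p = 3.19e-09), larger than in WT by 0.99 (adjusted p = 0.000106, but 0.0582 when the background was fitted on all spots). Slc38a5, a glutamine carrier, fell by 2.14 (1.51 without P7.5 KO replicate 1) with no detectable difference from WT (-0.07, adjusted p = 0.918). The taurine carrier gene Slc6a6 rose by 1.77 and differed from WT by 2.14 (adjusted p = 1.97e-05).

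Cytosolic ribosomal protein genes fell in 21 of 29 cases and rose in 1, by small amounts (median -0.34, and -0.46 in Cy5 alone). Rps3 read 0.59, 0.59, 0.65 and 0.34 at P2.5 and then -0.18, -0.23 and -0.10 at P7.5, a fall of 0.71 ± 0.08 (SE, n = 3 against 4, limma adjusted p = 1.05e-06), and differed from WT by -0.76 (adjusted p = 6.26e-05). In WT liver 9 of the 29 fell. Oxidative phosphorylation genes rose in 15 of 30 cases and fell in none, with Uqcrc2 of complex III up by 0.81. In Cy5 alone 8 of them rose and 2 fell, and in the log ratios of Feature Extraction 7 rose and 1 fell. Of stress response genes 5 of 16 fell and 2 rose, and Asns, asparagine synthetase, fell by 1.26. Of iron genes 6 of 13 rose and 4 fell, and in the log ratios of Feature Extraction 3 rose and 4 fell. The signalling ligand gene Bmp6 was down by 1.64 and the hepcidin regulator gene Hjv up by 0.84.

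The largest differences between the genotypes over the week, in either direction, included genes outside these lists. Atp2b2, a calcium pump of the plasma membrane, read 0.85, 1.28, 0.82 and 1.46 and then 2.57, 3.60 and 3.67 in KO liver, and 2.87, 3.72, 3.26 and 2.95 and then 1.50, 1.61, 1.70 and 1.61 in WT, a difference of 3.77 ± 0.35 (SE, limma adjusted p = 1.52e-06). In the log ratios of Feature Extraction that difference was 0.97 (adjusted p = 0.277) and the KO change -0.02, whereas Cy5 alone gave 4.10. Another Atp2b2 probe changed by 0.59 in KO liver, against 2.18 for the probe used. Nid1, a basement membrane protein, rose by 2.20 in KO and differed by 3.39 (adjusted p = 2.93e-05), although another of its probes changed by 0.14 in KO. Rgs16, a brake on G protein signalling, read 3.81, 3.37, 3.48 and 2.96 and then 3.68, 4.28 and 4.2 in KO (0.65, adjusted p = 0.216), while WT fell to values between -0.56 and 0.69, a difference of 3.71 (adjusted p = 6.75e-05), or 2.57 without a call when the library left out was included. The library labelled P7.5 KO replicate 2 read -0.52 for Rgs16, within the WT range. Mmd2, a membrane protein, fell by 1.69 in KO and rose by 1.36 in WT, a difference of -3.06 (adjusted p = 3.69e-05), and the library left out read 3.96, among the P2.5 values of 3.11 to 3.97.

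Not every named change passed under each way of processing. Of the 133 named genes called in KO liver, 45 lost the call in at least 1 of 15 other settings and 10 when 1 of the 7 KO libraries was left out. In the log ratios of Feature Extraction the call was lost for Slc22a7, Serpina3k, Hemgn, Mpo, Folr2, Lrat, Stab2, Dnase1l3, Cpa1, Afp, Plagl1, Peg3, Saa2, Ppara, Nr5a2, Ugt3a2, Cyp2b9, Cyp2b13, Cyp8b1, Slco1a4, Abcg8, Aqp9, Ppp1r3g, Tdo2, Kynu, Nags and Hjv, and for Atp2b2, Lipc and Otc, whose sign turned. With the library labelled P7.5 KO replicate 2 included it was lost for Plagl1, Cyp2f2, Cpt1a, Tat, Sdsl and Gnmt. Without P7.5 KO replicate 1 it was lost for Cpa1, Saa2, Cyp39a1, Tat and Gnmt, without P7.5 KO replicate 3 or 4 for Hemgn, Cpa1, Afp, Plagl1 and Cpt1a, and without replicate 4 also for Peg3. Without a P2.5 KO library it was lost for Hemgn (replicate 1 or 3), Cyp39a1 (replicate 1), Saa2 (replicate 2) and Cpa1 (replicate 2, 3 or 4). On scaled log ratios it was lost for Alb, Pzp, Hemgn, Marco, Stab2, Plagl1, Gc, Ppara, Nr5a2, Cpt1a, Apoc1, Fbp1, Pygl, Nags and Afp, and in Cy5 alone for Alb, Marco, Afp and Apoc1. With the background fitted on all spots it was lost for Folr2, Stab2, Dnase1l3, Cpa1, Afp, Ppara, Nr5a2, Kynu, Nags and Hjv, and for the mean of all probes for Ccne1, Plagl1 and Ddx58. The named metallothionein genes (Mt1, Mt2), blood transcription factors (Gfi1b, Tal1, Nfe2, Gata1) and collagens (Col1a1, Col1a2, Col3a1) kept their call in each of these settings and without each of the 7 KO libraries. The difference between genotypes lost its call in the log ratios of Feature Extraction for Atp2b2, Ptprb, Peg3, Orm2, Saa2, Ppara, Cyp8b1, Apoa4, Aqp9 and Tat, and with the library labelled P7.5 KO replicate 2 included for Orm2, Saa2, Cyp2f2, Cpt1a, Tat, Gls2, Ass1 and Rgs16. With the background fitted on all spots it was lost for Gfi1b, Ppara, Tat and Slc43a1.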

How the data were processed

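RNA of 24 mouse liver libraries was measured on Agilent arrays with liver in Cy5 and a common reference in Cy3, with no dye swap. The authors deposited scanner files with intensity per spot and the log10 ratio of Agilent Feature Extraction (version 11, per the submitters' processing notes), which subtracts background and normalizes the dyes, per the file headers. A deposited series table holds log2 ratios with liver over reference as direction and medians of -0.00119 to 0.0116. They correlated at 1, as rounded, with the log2 ratios computed here by the steps described next. With the log ratios of Feature Extraction they correlated at 0.862 to 0.921. The normalization steps of the series table are not given in the sources used here.

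Median intensities were corrected with normexp (offset 50) and loess within arrays in limma 3.58.1 (R 4.3.3), with control spots at weight 0 and spots marked as outliers or non-uniform left out (158 to 314 an array). Of 39429 probes 26581 were named by RefSeq accession and 12848 were not. The brightest probe stood for each of 20144 genes, and 17248 genes were tested, those whose Cy5 signal was well above background on 4 or more of 23 arrays. All 6 groups were fitted together (lmFit, eBayes) leaving out P7.5 KO replicate 2, with Benjamini-Hochberg adjustment and a threshold of 0.05. The procedure was tested on simulated data with independent noise and no effect of slide or scan day. That test therefore cannot show how far slide or scan day affects the calls. Of a group not well above background, a fold is given as "at least": the brighter group's mean over the dim group's mean of, per array, the higher of its own signal and the lowest signal well above background, in Cy5 after loess and Aquantile, open to dye bias. Where this bound exceeds the fold of the log2 ratios, no fold is given.

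Members and lists were chosen with earlier results of these data known. Named genes were Gcgr, the 12 largest rises and 12 largest falls that passed with groups that did not overlap, the 5 largest differences between genotypes each way, and, per list, up to 5 genes of lowest adjusted p in KO and up to 3 more whose difference between genotypes passed. A gene had to be well above background on all arrays, or all but 1, of its higher group (the first sets), and predicted genes, clones and sex-linked genes were skipped. Some genes that this rule names are not reported here. Alb and Rhd were named after their values were seen, for their promoters. Promoter sequences are from RefSeq (GRCm38.p6), matched by symbol for 13673 of the 17248 genes. Alternatives covered background, scaling, filter, probes, slide, array weights, replicate block and left-out libraries. Fitting the background on all spots, fitting KO arrays alone and lists without P7.5 KO replicate 1 were chosen after seeing the data.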

Additional observations from a re-analysis of the deposited data

Results flagged for a closer look

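In the group of 4 P2.5 KO libraries, 1 library lay far from the other 3 for 13 of the 143 genes named and for 3 of the 39 list means, by Dixon's criterion (gap over range above 0.829). Chance alone marks about 1 group in 20. The library was replicate 4 for Mt1 (log2 ratio 1.56), Gp9 (4.06), Dcn (0.77), Fcgr2b (0.93), Dlk1 (0.45), Plagl1 (2.56), Myc (-0.97), Khk (1.58), Ppp1r3g (3.13) and Sdsl (0.79), and for the means of endothelial markers (3.01) and of cAMP and glucagon response genes (1.25). It was replicate 3 for Ms4a3 (5.06), Saa2 (4.23) and Bmp6 (1.75), and for the mean of glycogen genes (1.34). Replicate 2 of the 4 libraries labelled P7.5 KO read 5.02 for Gcgr. It was left out by that value, so its distance from the others is no result.

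The first week change differed between genotypes by the interaction test of limma (adjusted p under 0.05) in the genes that follow, given as KO minus WT on the log2 scale. Among genes of blood cells these were Gfi1b (-1.25), Tspo2 (-1.42), Nfe2 (-1.37), Hemgn (1.07), Gp9 (-1.78), Pf4 (-1.35), Itga2b (1.12), Cd3d (-1.41) and Prg2 (-2.92). Markers of stellate and endothelial cells and of matrix were Col1a1 (3.08), Dcn (2.04), Pdgfrb (1.33), Ptprb (3.45) and Nid1 (3.39). In growth and insulin signalling, cell division and imprinted genes the differences were Rgcc (-1.38), Cited4 (-1.23), Mki67 (1.37), Plagl1 (3.40), Peg3 (1.64), Insr (2.01) and Irs2 (2.11). Metal binding, acute phase and complement genes gave Mt1 (-3.05), Mt2 (-4.53), C3 (1.84), Cp (1.66), Orm2 (-2.93) and Saa2 (-3.27). For lipids, bile acids and oxidation they were Cyp2f2 (-1.41), Cyp8b1 (2.52), Cyp39a1 (1.73), Hmgcs1 (1.38), Elovl6 (1.85), Cpt1a (0.89), Apoa4 (2.35) and Ddo (1.76). Genes of sugar and amino acid metabolism and of the cAMP response gave Aqp9 (1.59), Tat (-1.50), Crem (-1.32), Pygl (1.02), Gls2 (-1.72), Sdsl (-1.26), Gnmt (-1.02) and Ass1 (-1.01). The remaining named genes were Atp2b2 (3.77), Slc26a1 (2.32), Ppara (0.93), Rora (2.17), Clock (1.32), Slc43a1 (-0.99), Slc6a6 (2.14), Rps3 (-0.76), Rgs16 (3.71) and Mmd2 (-3.06). No explanation was tested for any of these differences, and the KO and WT arrays shared no slide.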

How the results depend on the processing

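The count of genes that passed in the KO first week (6340) stayed within 1.5 times its value in every setting tried except array weights, which gave 10200, and the difference between genotypes (5741) likewise except for 8903 with array weights. Changes of at least 2-fold (742) rose to 1459 in the log ratios of Feature Extraction. With the library labelled P7.5 KO replicate 2 included, the Gcgr change was 1.04. Leaving out 1 library at a time gave 4790 to 6707 genes in KO, 693 to 906 at least 2-fold, 5631 to 6711 in WT, and 4460 to 6432 for the difference between genotypes, with a Gcgr change of -0.28 to -0.15. Of 39 lists 27 had a median above 0, and 21 to 27 with P7.5 KO replicate 2 included, in the log ratios of Feature Extraction, in Cy5 alone and without P7.5 KO replicate 1.

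Replicate numbers did not pair the KO libraries: the deviations of same-numbered libraries correlated at 0.15, -0.54 and 0.40, while P2.5 replicate 3 and P7.5 replicate 1 correlated at 0.61. With a replicate block 6022 genes passed in KO, 6564 in WT and 5458 for the difference between genotypes.

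Over 142 genes named and 15 other settings 2036 of 2130 KO changes kept their direction and their side of the threshold, 73 no longer passed, 7 newly passed and 14 changed sign. The signs that changed, of KO changes and of differences between genotypes (KO minus WT), were as follows, and the cause was not tested. With the library labelled P7.5 KO replicate 2 included, Ass1 changed by 0.28 and Rgs16 by -0.50, and the differences were -0.18 for Aqp3 and 0.14 for Tdo2. In the log ratios of Feature Extraction Atp2b2 changed by -0.02, Lipc by -0.15 and Otc by -0.17, and the differences were 0.05 for Slc22a7, 0.19 for Lin28b, -0.45 for Aqp9 and 0.10 for Tdo2. In Cy5 alone Prg2 changed by 0.26, Afp by 0.00 and Apoc1 by -0.01, and the differences were 0.21 for Slc22a7, 0.07 for Lin28b and 0.20 for Slc38a5. On scaled log ratios Afp changed by -0.16, and the differences were 0.04 for Slc22a7 and -0.16 for Aqp3. With array weights Orm2 changed by -0.17 and Apoa4 by 0.04, and the differences were 0.05 for Slc22a7, 0.01 for Lin28b, 0.40 for Tdo2 and 0.60 for Slc38a5. With the background fitted on all spots the differences were 0.06 for Slc22a7, -0.04 for Aqp3, 0.19 for Tdo2 and 0.12 for Slc38a5. The Lin28b difference was 0.16 for the mean of all probes and 0.03 without background subtraction. Prg2 changed by 0.00 in the deposited series values and with slide as a random block, and by 0.07 with the replicate block. Without 1 library the change ran from -0.61 to 0.02 for Apoa4, -0.36 to 0.96 for Orm2 and -0.05 to 0.06 for Prg2, and the difference from -0.13 to 0.37 for Aqp3, -0.17 to 0.03 for Lin28b, -0.28 to 0.30 for Slc22a7, -0.41 to 0.56 for Slc38a5 and -0.52 to 0.35 for Tdo2.

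Of the differences between genotypes that passed, Tat and Mki67 lost the call without 1 library, Tat without most single libraries (-1.56 to -1.29) and Mki67 without P7.5 KO replicate 4 (1.21). With 3 and 4 libraries a group, their number limits the precision. Genes not well above background in a group have only bounds, or no fold where the bound exceeds the fold of the log2 ratios.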
